A study of Mus musculus with 40 samples.

Results

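The interferon-stimulated gene families of the mouse were taken from whole-kidney RNA sequencing as every gene name of the guanylate-binding (Gbp), IFIT, IFITM, OAS, IRF, Irgm, Iigp, Isg and Mx families, the Ifi genes whose name goes on with a digit, and single genes such as Rsad2, Usp18, Ddx58, Ifih1, Zbp1 and Stat2. The rule matched 84 names, of which 2 pseudogenes (Gbp2-ps and Ifi203-ps) were skipped. Gbp11, Mx2 and Oas1b, which the reference annotation labels polymorphic pseudogenes, were kept. None of the names had Control counts that differed between the tables the rule compared. The remaining 82 members, in 13 families, stood among 55782 names used in the injury and therapy tables and 55866 in the sham table. After a filter on low counts 68 members were tested in the injury table, 70 in the therapy table and 68 in the sham table, and 65 in all 3. The 10 tested in none were Oas1d, Oas1e, Oas1f, Oas1h, Ifitm5, Ifi44l, Gbp2b, Ifi202b, Ifi208 and Ifi214, so counts of calls below describe the members that passed the filter.

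The study asked how human MSC (mesenchymal stromal cells) from bone marrow or umbilical cord act on acute kidney injury after ischaemia and reperfusion, and at which time they should be given. All kidneys came from wild-type C57bl/6 mice. The injury groups were IRI 6 h, IRI 24 h, IRI 48 h and IRI 72 h, named for the hours after reperfusion; the therapy groups were AKI, injured and collected 6 h after reperfusion, and BM-MSC and UC-MSC, injured kidneys of animals given bone marrow or umbilical cord MSC just after reperfusion. Control kidneys served both the injury and the therapy table, and a separate table held sham 24 h kidneys, operated on without ischaemia, and their own controls without surgery (sham control). Each of the 10 groups had 4 libraries. The collection time of the BM-MSC, UC-MSC and Control kidneys was not in the labels, nor was the age of the animals, nor whether each library was 1 animal, so the p-values measure only the spread between libraries. The sham 24 h kidneys carried the word IRI in 1 label field and surgery without IRI in another.

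Interferons are secreted proteins that bind receptors on the cell surface and, through JAK kinases, activate transcription factors of the STAT family. In the type I response STAT2 and IRF9 belong to a complex that binds the interferon-stimulated response element (ISRE) in promoters, while the response to interferon gamma acts at the gamma-activated site (GAS). The proteins made from the target genes restrict viruses, sense foreign nucleic acid or regulate the response itself, and several of them are also made at a basal level in kidney.

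The libraries held 13313096 to 18475869 counts in Control, IRI 6 h and the therapy groups, but 6696395 to 13517423 in IRI 24 h, 5444724 to 7014133 in IRI 48 h and 4640921 to 5366202 in IRI 72 h, and 26601247 to 37097091 in the sham table. At 72 h 16 members had a count of 0 in 1 library and at least 20 in another, 9 did so at 48 h, and none did in Control, IRI 6 h or IRI 24 h. AKI 1 stood apart from AKI 2 to 4: its rank correlation with them over all genes was 0.921 to 0.924, against 0.976 to 0.982 among those 3 libraries. AKI and IRI 6 h carry the same labelled time and the same library names but different counts, and AKI 2 to 4 correlated with IRI 6 h at 0.896 to 0.949, and BM-MSC with IRI 6 h at 0.929 to 0.991. AKI 1 correlated with Control at 0.938 to 0.942. The AKI group is therefore set against IRI 6 h below, and the counts of members called in AKI, or against AKI, are also given without AKI 1. Markers of kidney epithelium (8 of 10 listed were in the tables used, none at 0) summed to 1240 to 1541 CPM (normalised counts, defined with the first values below) in IRI 72 h and to 12526 to 14936 CPM in Control.

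Promoter sequences show which members carry the response element. In the 300 bases around each gene start (250 before and 50 after; RefSeq, GRCm38.p6), the ISRE core GAAA NN GAAA (N is any base) or its reverse complement TTTC NN TTTC was present in 32 of the 61 members with a window, or 52.5%, against 3.99% of 27025 genes. The GAS core TTCNNNGAA, its own reverse complement, was present in 14 of the 61, or 23%, against 9.55% of genes. The windows of 6 members whose results are described below are printed 5′ to 3′ on the gene's strand, chosen after their values were seen: a factor of the response, a secreted modifier, a membrane protein, an RNA-binding protein, a GTPase and an antiviral enzyme that moved in different directions. Capitals mark the ISRE core.
Stat2 (chr10:128270248-128270547, plus strand): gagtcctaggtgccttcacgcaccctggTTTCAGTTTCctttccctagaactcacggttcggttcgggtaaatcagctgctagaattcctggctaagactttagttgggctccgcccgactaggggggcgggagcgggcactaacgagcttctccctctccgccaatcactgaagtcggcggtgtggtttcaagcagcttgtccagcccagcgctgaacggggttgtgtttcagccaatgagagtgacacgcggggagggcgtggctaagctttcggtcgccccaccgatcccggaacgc
Isg15 (chr4:156200769-156201068, minus strand): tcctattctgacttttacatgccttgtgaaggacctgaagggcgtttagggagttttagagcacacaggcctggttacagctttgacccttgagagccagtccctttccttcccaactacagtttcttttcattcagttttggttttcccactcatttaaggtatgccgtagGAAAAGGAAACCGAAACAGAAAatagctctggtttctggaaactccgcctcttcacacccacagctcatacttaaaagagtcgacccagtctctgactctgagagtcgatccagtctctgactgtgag
Ifitm3 (chr7:141010695-141010994, minus strand): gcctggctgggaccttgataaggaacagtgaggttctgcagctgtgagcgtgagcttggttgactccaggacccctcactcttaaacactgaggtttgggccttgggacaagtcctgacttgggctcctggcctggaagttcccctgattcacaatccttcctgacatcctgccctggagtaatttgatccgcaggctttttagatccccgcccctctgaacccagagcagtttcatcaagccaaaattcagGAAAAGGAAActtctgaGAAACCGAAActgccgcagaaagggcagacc
Ifit1 (chr19:34640639-34640938, plus strand): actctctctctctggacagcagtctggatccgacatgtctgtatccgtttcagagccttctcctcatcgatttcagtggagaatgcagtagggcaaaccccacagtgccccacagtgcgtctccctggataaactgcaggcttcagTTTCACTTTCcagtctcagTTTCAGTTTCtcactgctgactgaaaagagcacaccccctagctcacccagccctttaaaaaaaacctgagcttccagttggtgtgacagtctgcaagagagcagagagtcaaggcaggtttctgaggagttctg
Irgm2 (chr11:58214727-58215026, plus strand): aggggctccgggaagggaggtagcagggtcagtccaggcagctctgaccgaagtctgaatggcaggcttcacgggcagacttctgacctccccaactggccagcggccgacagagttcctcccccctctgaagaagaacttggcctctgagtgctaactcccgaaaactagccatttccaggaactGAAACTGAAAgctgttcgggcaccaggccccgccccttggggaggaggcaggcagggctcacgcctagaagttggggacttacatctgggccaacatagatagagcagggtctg
Rsad2 (chr12:26456403-26456702, minus strand): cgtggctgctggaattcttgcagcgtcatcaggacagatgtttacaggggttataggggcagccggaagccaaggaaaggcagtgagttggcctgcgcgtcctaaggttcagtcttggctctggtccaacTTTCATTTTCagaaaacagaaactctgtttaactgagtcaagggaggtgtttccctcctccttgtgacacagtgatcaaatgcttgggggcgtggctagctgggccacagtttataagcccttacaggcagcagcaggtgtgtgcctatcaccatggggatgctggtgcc
Isg15 held 3 overlapping copies, Ifitm3 and Ifit1 held 2 each, and Stat2, Irgm2 and Rsad2 held 1 each; in Ifitm3 both lay after the gene start. By family the core was present in 5 of 5 guanylate-binding members with a window, 8 of 10 Ifi200 members and 5 of 6 IFIT members, and in 2 of 7 IFITM members, 1 of 8 IRF members, 0 of 3 IRF2-binding members and 0 of 4 members of the IFI27, IFI30, IFI35 and IFI44 group. A match is a string of letters and not a shown binding site.

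After injury the families did not move as a block. Ifitm2, Ifitm3 and Ifitm10 of the IFITM membrane proteins, Ifi27, Isg20 and Oas2 were higher at every time examined, Stat2, Irf3, Irf7 and Irf9 were higher from 24 h, and the immunity-related GTPase genes Irgm1, Irgm2 and Iigp1 were lower late. Of 68 members with enough counts to test, the quasi-likelihood test of edgeR, adjusted by Benjamini-Hochberg over 16653 genes and called at an adjusted p under 0.05, found 12 higher and 0 lower at 6 h, when 10.4% of all genes were called higher and 8.51% lower. At an unadjusted p under 0.05 there were 18 higher and 0 lower, and DESeq2 called 0 lower. Fitted with only the libraries of the comparison, 31 were higher and 6 lower at 6 h (25.7% and 22.3% of all genes) and 33 and 17 at 24 h (37.1% and 35.7%). In the fit of all libraries of the table, called were 20 higher and 6 lower at 24 h (all genes 21.8% and 20.2%), 23 and 8 at 48 h (26.9% and 26.8%) and 18 and 13 at 72 h (26.7% and 29.6%). As shares of the members tested these were 17.6% and 0%, 29.4% and 8.82%, 33.8% and 11.8%, and 26.5% and 19.1%. The share called higher was above that of all genes at 6 h, 24 h and 48 h and near it at 72 h, and the share called lower was below that of all genes at all 4 times. The median log2 fold change of the members was 0.33 at 6 h, 0.37 at 24 h, 0.54 at 48 h and 0.23 at 72 h, where that of all genes was -0.07, 0.05, 0.01 and -0.04. The 6 h count was the least stable, at 4 to 6 without any 1 of Control 1 to 4, IRI 6 h 1 or IRI 6 h 2. In whole-kidney RNA, a change in the number of cells of a type and a change in RNA per cell cannot be told apart.

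**Figure D1:**
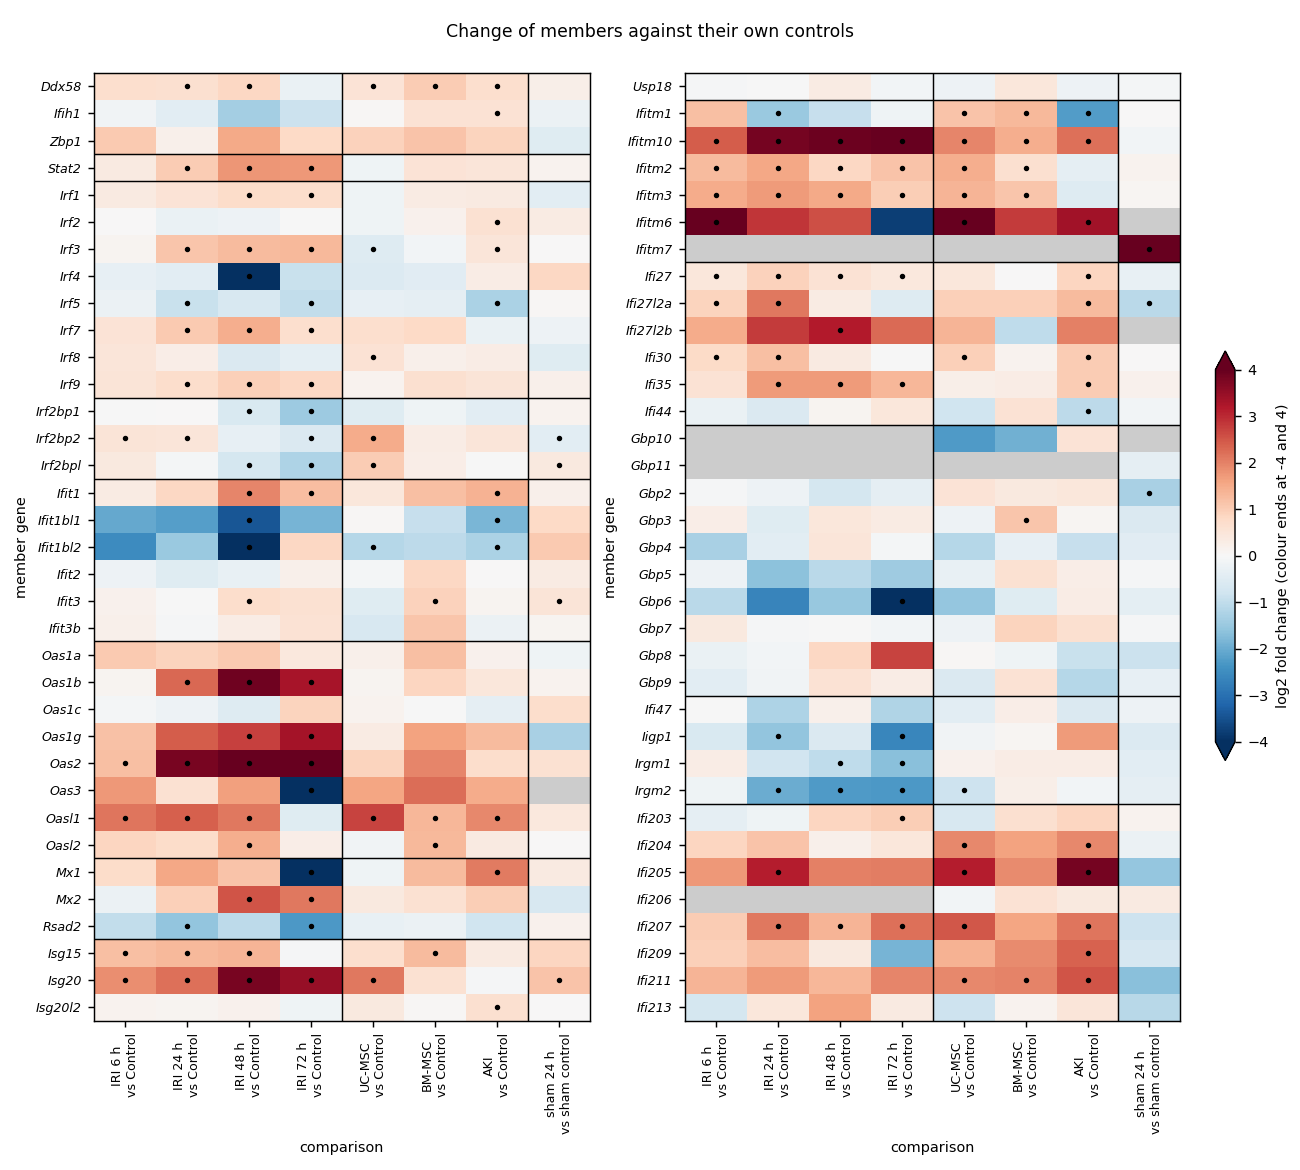
Log2 fold change of 70 members (rows, ordered by family) in 8 comparisons (columns); red is higher and blue lower in the group named first, the colour stops at 4 in either direction, a dot marks an adjusted p under 0.05 and grey a member not tested. The rows of Ifitm2, Ifitm3, Ifitm10, Isg20, Oas2 and Ifi27 carry dots in all 4 injury columns. The rows of Irgm1, Irgm2 and Iigp1 are blue at 24 h, 48 h and 72 h, and that of Iigp1 also at 6 h, without a dot.

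Across the 4 times 29 members were called higher at least once, 17 were called lower at least once and 23 were never called. The share of all genes called at least once is not given, so these counts cannot be set against it. Irf2bp2, which encodes a partner of IRF2, was the 1 member called in both directions: it was higher at 6 h (0.51) and 24 h (0.47) and lower at 72 h (-0.58). The first 2 calls each ended without 7 of the 8 libraries, at adjusted p up to 0.141 and 0.129. Of 28 tested members with an ISRE core 11 were called higher and 6 lower at 1 or more times. Of 23 with a window and no core 12 were called higher and 6 lower, and of 17 without a window 6 and 5.

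**Figure D2:**
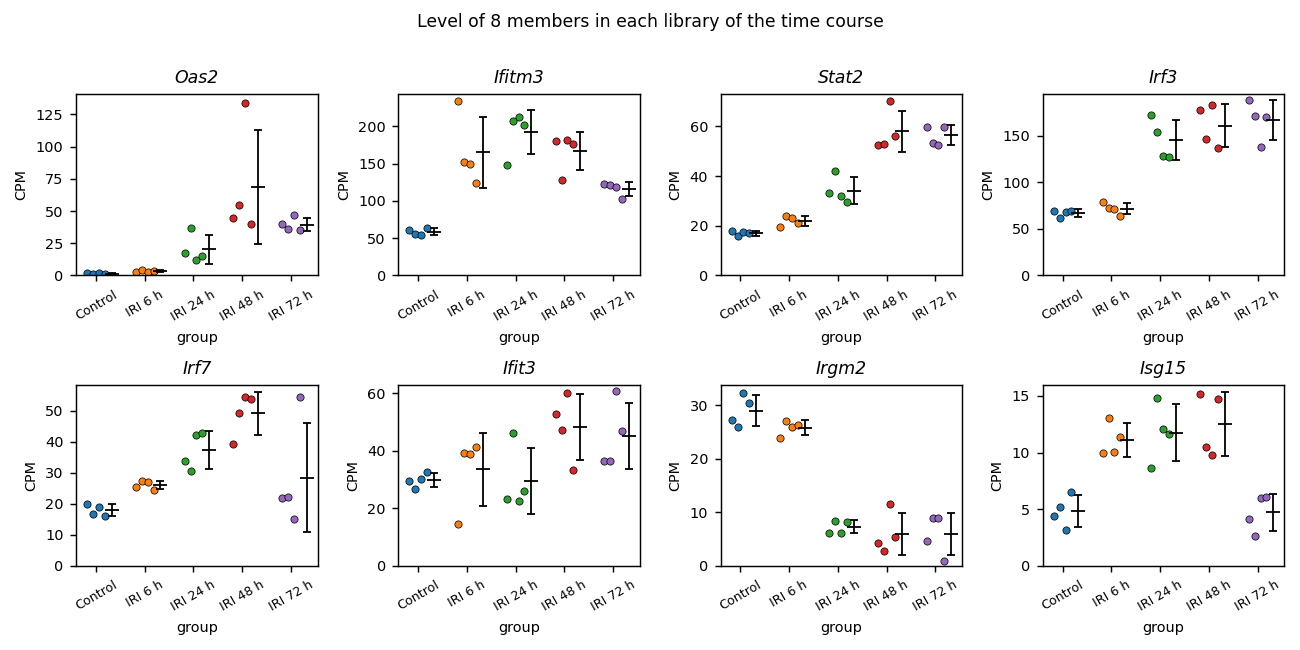
CPM of 8 members in each library (points) of Control, IRI 6 h, 24 h, 48 h and 72 h, 4 libraries a group, with the group mean and SD in black; each panel has its own axis from 0. Oas2 climbs to 39.9 to 134 CPM at 48 h, Stat2 levels off at 48 h, Isg15 overlaps Control at 72 h, and Irgm2 drops at 24 h.

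Among the signalling factors, Stat2, which encodes a subunit of the type I complex, had 18, 15.7, 17.4 and 17 CPM in Control and 19.5, 24.1, 23.1 and 21.1 CPM at 6 h. CPM are counts scaled to a common library size by TMM. Later it had 33.1, 41.8, 31.9 and 29.6 at 24 h, 52.6, 53.1, 70.3 and 56.1 at 48 h and 59.8, 53.3, 52.5 and 59.8 at 72 h. All libraries of the 3 later times lay above all Control libraries, with log2 fold changes of 1.00 ± 0.16 at 24 h (SE; edgeR adjusted p = 2.01e-05), 1.77 ± 0.16 at 48 h (4.7e-09) and 1.73 ± 0.16 at 72 h (5.83e-09). The 6 h value, 0.37, missed the threshold (edgeR adjusted p = 0.116).

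Among the IRF transcription factors, Irf3, a constitutive factor activated by phosphorylation downstream of nucleic acid sensors, had 69.5, 61.5, 68.7 and 69.3 CPM in Control and 78.8, 72.5, 71.6 and 64.3 at 6 h. Then it had 172, 154, 129 and 128 at 24 h, 178, 146, 184 and 137 at 48 h and 189, 172, 138 and 170 at 72 h. Its level at 24 h stood 1.11 ± 0.14 above Control on the log2 scale (edgeR adjusted p = 7.44e-07) and 1.02 above 6 h, with no overlap between libraries. Irf7, the factor that amplifies type I interferon production, had 20.1, 16.7, 19.1 and 16 CPM in Control and 25.4, 27.3, 27 and 24.6 at 6 h. At the later times the libraries had 33.9, 30.4, 42.1 and 42.9 at 24 h, 39.3, 49.2, 54.3 and 53.8 at 48 h and 21.9, 22.2, 15.2 and 54.4 at 72 h. It rose at 24 h (1.06 ± 0.27; edgeR adjusted p = 0.00263) and at 48 h (1.45 ± 0.27; 9.14e-05). At 72 h a single library, IRI 72 h 4, was high and the others overlapped Control: the log2 fold change was 0.66 (0.0428) with it and 0.10 without it, and the call also ended without any 1 of the 4 Control libraries, where the adjusted p was 0.0581 or more.

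Irf9, the DNA-binding subunit of the type I complex, rose at 72 h (0.82 ± 0.26; edgeR adjusted p = 0.00987), with 36.6, 44.1, 32.6 and 30.1 CPM at 72 h against 16.9, 19.7, 21.2 and 23.6 CPM in Control. Its 24 h value (0.70; adjusted p = 0.0298) ended without Control 1, 2 or 3 or IRI 24 h 1 or 2, at 0.0562 to 0.118, and its 48 h value of 0.94 dropped to 0.47 without IRI 48 h 1 (0.0521). Irf1 was called at 48 h (0.73) and 72 h (0.71), but the calls ended without 5 and 6 of the libraries compared, at adjusted p up to 0.0734 and 0.164.

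Irf5, best known from myeloid cells and B cells, fell at 24 h (-0.89) and 72 h (-0.98). Irf4, a lymphocyte factor, was at 0 in all 4 libraries at 48 h, against 88 counts over the Control libraries. By a floor of 3 counts over the group it was at least 12.6-fold lower. At 72 h the Irf4 libraries had 2.19, 0, 1 and 0 CPM against 1.34, 1.34, 0.969 and 2.37 in Control. The co-repressor genes Irf2bp1 and Irf2bpl fell at 48 h (-0.60 and -0.69) and further at 72 h (-1.45 and -1.25); without IRI 48 h 3 the 48 h value of Irf2bp1 was -0.55 (0.0607).

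The IFITM genes encode small membrane proteins, some of which block the entry of viruses. Of 5 tested, 4 rose at 6 h. Ifitm3 had 61.4, 55.7, 53.8 and 63.9 CPM in Control and 235, 153, 150 and 125 at 6 h. Its later levels were 148, 208, 213 and 202 at 24 h, 181, 128, 182 and 177 at 48 h and 123, 122, 118 and 102 at 72 h. Every injured library lay above every Control library, and the log2 fold changes of 1.49 ± 0.17, 1.71 ± 0.17, 1.51 ± 0.17 and 0.99 ± 0.17 held in every alternative tried (edgeR adjusted p from 4.37e-08 at 24 h to 4.27e-05 at 72 h). Ifitm2 rose at all 4 times, by 1.28, 1.53, 0.83 and 1.13. Ifitm10 rose by 2.41 ± 0.46 at 6 h (0.000513) to 4.65 ± 0.49 at 72 h (3.7e-08). At 72 h its libraries had 18.6, 26.5, 38.7 and 20.2 CPM against 0.892, 1.34, 0.83 and 1.05 in Control.

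Ifitm1 differed from its neighbours in the family: it had 34.2, 25.2, 26.8 and 23.3 CPM at 6 h, 4.75, 3.97, 3.61 and 4.62 at 24 h, and 13.7, 13.2, 10.2 and 10.5 in Control. The 6 h libraries were all above Control without passing the test (1.20; edgeR adjusted p = 0.06), the 24 h libraries were all below it (-1.49 ± 0.46; 0.0111), and 24 h was lower than 6 h by a log2 fold change of -2.69 (0.000135). Ifitm6 was called higher at 6 h (4.35; 0.0384), where IRI 6 h 1 had 10.2 CPM and the other 3 libraries 1.03 to 1.24. That call ended without any 1 of the Control libraries or IRI 6 h 2, at 0.0515 to 0.123.

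Neutrophil markers were above Control at each time. Of 6 listed, 5 were in the table. Their sum was 51.7 to 455 CPM at 6 h, highest in IRI 6 h 1, 23.8 to 59.9 at 24 h, 31.5 to 64.3 at 48 h and 21.4 to 29.0 at 72 h, where Control libraries had 2.96 to 5.03. Ly6g, which marks mouse neutrophils, was at 0 in Control, 48 h and 72 h. The sum of macrophage and monocyte markers (8 of 8 in the table) was 203 to 214 CPM in Control and 269 to 493 at 6 h. It was 195 to 265 at 24 h, 123 to 167 at 48 h and 135 to 198 at 72 h. Single markers differed from the sum. At 48 h Cd68 had 14.2 to 19.2 CPM against 3.91 to 4.37 in Control, and Adgre1 had 0.369 to 6.42 against 3.70 to 7.20. The part of either cell type in the IFITM values was not tested.

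The OAS enzymes make an oligoadenylate messenger that activates RNase L. Of 8 tested, 2 rose at 6 h, 3 at 24 h, 5 at 48 h and 3 at 72 h, with Oas3 lower at 72 h. Oas2 had 1.78, 1.2, 1.87 and 0.908 CPM in Control and 2.78, 4.52, 2.85 and 3.15 at 6 h. It had 17.4, 37.1, 12.3 and 15.1 at 24 h, 44.9, 54.7, 134 and 39.9 at 48 h and 40.1, 36.1, 46.7 and 35.3 at 72 h. No time overlapped Control, and the log2 fold change was 3.81 ± 0.42 at 24 h (edgeR adjusted p = 1.2e-07), 5.56 ± 0.44 at 48 h (5.2e-10) and 4.77 ± 0.43 at 72 h (3.1e-09). The 6 h value of 1.20 ± 0.41 (0.0418) ended without any 1 of the 8 libraries, at 0.0522 to 0.136.

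Oas1b, 1 of the mouse Oas1 copies and annotated as a polymorphic pseudogene, showed the same late timing. It had 5.79, 6.91, 5.45 and 3.08 CPM at 24 h, 19.2, 16.2, 13.4 and 15.6 at 48 h and 12.9, 3.9, 21.4 and 4.24 at 72 h against 1.85, 0.845, 0.83 and 0.768 in Control. The log2 fold changes were 2.29, 3.89 and 3.29. Oasl1, an OAS-like protein without the enzyme activity, moved early instead: 21.3, 13.2, 11.5 and 11.3 CPM at 6 h, 10.7, 15.4, 23.2 and 19.5 at 24 h and 0, 2.46, 6.61 and 0 at 72 h against 3.06, 3.94, 2.91 and 3.14 in Control. It was called at 24 h (2.40; edgeR adjusted p = 0.00672), and at 6 h (2.13; 0.0294) and 48 h (2.09; 0.0128). The 6 h call ended without any 1 of the Control libraries or IRI 6 h 1 or 2 (0.0516 to 0.0968), and the 48 h call without IRI 48 h 2 (0.0765). Oas3 was at 0 at 72 h, at least 3.40-fold lower. Oas1a was never called, and 57.6% of its 50-base stretches are shared with Oas1g, so reads of these copies may be split between them.

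The IFIT proteins bind viral RNA, and none was called at 6 h or 24 h by edgeR, by DESeq2 or at an unadjusted p under 0.05 among 6 tested. Ifit1 had 8.47, 5.14, 7.68 and 6.5 CPM in Control and 4.65, 9.51, 10.1 and 10.4 at 6 h. The level was then 8.32, 12.5, 13.7 and 14.9 at 24 h, 18.6, 23.2, 26.2 and 39.4 at 48 h and 18.2, 9.23, 36.2 and 1.88 at 72 h. The 48 h libraries were all above Control (1.95 ± 0.50; edgeR adjusted p = 0.00241). The 72 h libraries spread on both sides of it, and that call (1.24; 0.0391) ended without any 1 of the Control libraries or IRI 72 h 1 or 3, with log2 fold changes of 0.46 to 1.33. Ifit3 was called at 48 h only (0.70; 0.0435), and the call ended without 7 of the 8 libraries, at 0.0655 to 0.138. For Ifit3, 51.2% of its 50-base stretches are shared with Ifit3b. On the lower side, Ifit1bl1 and Ifit1bl2 were called at 48 h. Both already lay below every Control library at 6 h, without a call. Ifit1bl1 had 0.826, 0.691, 0.512 and 0.686 CPM at 6 h and 0.297, 0.64, 0.921 and 0.513 at 24 h against 2.55, 2.25, 3.32 and 3.14 in Control. Ifit1bl2 had 0.0751, 0.425, 0.365 and 0.229 CPM at 6 h against 1.47, 1.06, 2.08 and 1.96 in Control, and overlapped Control at 24 h. Ifit1bl2 was at 0 in every 48 h library against 96 counts over the Control libraries, at least 13.7-fold lower. At 72 h its libraries had 0, 35, 0 and 19 counts, or 0, 7.18, 0 and 4.47 CPM, on both sides of Control.

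ISG15, a ubiquitin-like modifier that is also secreted, was higher early and overlapped Control at 72 h. It had 9.99, 13.1, 10 and 11.4 CPM at 6 h, 8.61, 14.8, 12 and 11.6 at 24 h, 15.2, 10.5, 9.76 and 14.8 at 48 h and 4.16, 2.67, 6.01 and 6.12 at 72 h, with 4.4, 5.21, 3.18 and 6.57 in Control. It was called at 6 h (1.20 ± 0.34; edgeR adjusted p = 0.0147), 24 h (1.28 ± 0.34; 0.00406) and 48 h (1.37 ± 0.34; 0.00187), and fell between 48 h and 72 h (-1.40; 0.0262). The 6 h call ended without Control 3 or IRI 6 h 2, at 0.0531 and 0.0673. Isg20, an RNA exonuclease, stayed high to the end, with 33.5, 26.7, 27.8 and 50.6 CPM at 72 h against 3.38, 3.73, 3.05 and 2.24 in Control (3.48 ± 0.60; 3.6e-05). At 48 h its libraries ranged from 5.93 to 97.5 CPM, all above Control (3.79 ± 0.61; 1.48e-05). At 6 h (1.85; 0.0249) IRI 6 h 1 had 23.6 CPM and the others 6.21 to 8.87, and the call ended without that library (1.20; 0.185) or without Control 1, 3 or 4. Usp18, the protease that removes ISG15, was not called at any time.

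Beside them, Ifi27, which encodes a small hydrophobic membrane protein, had 116, 107, 121 and 117 CPM at 24 h against 64.3, 55.3, 55.3 and 65.4 in Control (0.94 ± 0.15; edgeR adjusted p = 1.49e-05). Its 6 h (0.44) and 72 h (0.42) calls ended without 7 and 5 of the libraries, at adjusted p up to 0.121 and 0.108. Ifi35 was higher from 24 h on. It had 43.8, 49.6, 43.6 and 47.3 CPM at 24 h, 57.7, 33.9, 41.7 and 52.3 at 48 h and 29.6, 42.3, 42.9 and 28.3 at 72 h against 16.2, 13, 14.8 and 13.1 in Control. The log2 fold changes of 1.69, 1.70 and 1.32 held in every alternative tried. Ifi27l2a peaked at 24 h, at 196, 93, 123 and 132 CPM against 36.9, 30, 27.3 and 31.1 in Control (2.12 ± 0.28; 2.25e-06), and was not called at 48 h or 72 h. Of 7 tested members of the Ifi200 cluster, whose PYHIN proteins bind DNA, Ifi207 was called at 24 h, 48 h and 72 h (2.11, 1.35 and 2.21) and Ifi205 at 24 h (3.15). The 48 h call of Ifi207 ended without Control 1, 2 or 3 or IRI 48 h 1 or 4, at adjusted p up to 0.137, and that of Ifi205 without Control 1 or IRI 24 h 3, at 0.0516 and 0.0549. Ddx58, which encodes the RNA sensor RIG-I, reached 0.65 at 24 h (0.0413) and 0.83 at 48 h (0.00787). The first call ended without 7 of the libraries, at adjusted p up to 0.121, and the second was 0.52 without IRI 48 h 1 (0.0724). The other sensors, Ifih1 and Zbp1, were not called at any time.

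The immunity-related GTPases attack vacuoles that hold pathogens. Of 4 tested, 0 were called at 6 h by edgeR or DESeq2 over the whole table (0 at an unadjusted p under 0.05; 1 higher with only the libraries of the comparison), 2 were lower at 24 h (Iigp1 and Irgm2), 2 at 48 h (Irgm1 and Irgm2) and 3 at 72 h, and Ifi47 was called at none of these times. Irgm2 had 6.24, 8.44, 6.23 and 8.21 CPM at 24 h, 4.23, 2.76, 11.5 and 5.38 at 48 h and 4.6, 9.03, 9.01 and 0.942 at 72 h against 27.3, 25.9, 32.2 and 30.4 in Control. The 6 h libraries were at 23.8, 27, 25.9 and 26.2. The log2 fold changes were -1.99 ± 0.43 at 24 h (edgeR adjusted p = 0.000551), -2.26 ± 0.43 at 48 h (0.000132) and -2.28 ± 0.44 at 72 h (0.000131), and -1.82 between 6 h and 24 h (0.00215). None of the 24 h, 48 h and 72 h libraries reached the lowest Control library, and all 3 calls against Control held in every alternative tried.

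Irgm1 and Iigp1, of the same GTPase family, fell as well. At 6 h Iigp1 had 7.51, 13.5, 10.9 and 11.6 CPM, all below the lowest Control library (14.0), without a call. Irgm1 was lowest at 72 h, with 10.5, 17.4, 5.41 and 35.3 CPM against 57.7, 49, 59.1 and 53.8 in Control (-1.69 ± 0.40; edgeR adjusted p = 0.00107). Its 48 h call (-1.03; 0.0286) ended without Control 1 or 3 or IRI 48 h 2 or 4, at 0.0505 to 0.0808. Iigp1 fell at 24 h (-1.56 ± 0.36; 0.00114) and 72 h (-2.62 ± 0.39; 5.13e-06), with 2.41, 3.9, 1.6 and 2.83 CPM at 72 h against 18.2, 14, 14.2 and 19.8 in Control, and was not called at 48 h (-0.58), when IRI 48 h 1 alone had 19.6 CPM.

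Rsad2, which encodes the antiviral enzyme viperin, had 12.4, 17.4, 16.3 and 14.6 CPM at 6 h, 8.76, 7.93, 12.3 and 11.5 at 24 h, 8.14, 4.98, 21.6 and 23.4 at 48 h and 10.1, 8.21, 0 and 6.36 at 72 h, against 27.2, 33.8, 27.3 and 32.8 in Control. All injured libraries lay below all Control libraries, and the test called 24 h (-1.58 ± 0.55; edgeR adjusted p = 0.0231) and 72 h (-2.30 ± 0.58; 0.00175). The 24 h call ended without Control 2 or IRI 24 h 1 or 2, at 0.0522 to 0.0668. Mx1, a dynamin-like antiviral GTPase, was at 0 in every 72 h library, at least 3.18-fold lower. Its relative Mx2, annotated as a polymorphic pseudogene, was called higher at 48 h (2.52) and 72 h (2.10). Without Control 3 the 48 h value was 2.20 (0.0574), and the 72 h call ended without 5 of the libraries, at up to 0.12.

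The guanylate-binding proteins, large GTPases induced above all by interferon gamma, gave no call at 6 h, 24 h or 48 h among 8 tested by edgeR. At an unadjusted p under 0.05 there were 0, 1 and 0, and DESeq2 called 0, 1 and 0. Without an edgeR call, Gbp6 lay below every Control library at 6 h (0.976, 2.07, 1.9 and 2.75 CPM) and 24 h (0.297, 0.384, 0.921 and 0.924). Gbp4 did so at 6 h, at 1.2, 3.83, 2.78 and 3.43 CPM against 7.01, 7.39, 5.19 and 8.24 in Control. Gbp5 did so at 24 h, at 2.08, 0.895, 1.7 and 1.64 against 3.89, 4.15, 4.78 and 7.05. None of the 8 lay wholly above Control at either time. Gbp2 had 12.3, 10.6, 21.7 and 18.2 CPM at 24 h against 19.9, 16.1, 18.6 and 18.5 in Control and was not called at any time. Gbp6 was at 0 in all 72 h libraries against 3.46 to 4.59 CPM in Control, at least 25.6-fold lower, but 59.7% of its 50-base stretches are shared with another gene.

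Between neighbouring times, 8 members were higher and 5 lower at 24 h than at 6 h (all genes 14.9% and 13.9%; with only the libraries of the comparison 15 and 14, all genes 26% and 26.9%), 4 and 6 at 48 h than at 24 h (9% and 12.1%; 8 and 5 with DESeq2 size factors) and 2 and 10 at 72 h than at 48 h (2.04% and 3.63%). The last step held 14.7% of the members lower. Without IRI 48 h 1 it held 6 calls in all in place of 12, with the replicate number as a block 5, all lower, and with only the libraries of the comparison 0, where 0.138% of all genes were called higher and 0.0276% lower (11 members were lower at an unadjusted p under 0.05 in edgeR). Oas2 climbed by 2.60 between 6 h and 24 h and by 1.75 between 24 h and 48 h, and Stat2 by 0.63 and 0.77.

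The genes around the members in the pathway were read from lists. All 21 interferon genes listed fell below the filter, with 2, 10, 8 and 31 counts in all over the 4 libraries of IRI 6 h, 24 h, 48 h and 72 h against 3 in Control, so ligand RNA was not measurable at this depth. Of 9 receptor and kinase genes, 2 were higher at 6 h, namely Ifngr2 (1.19 ± 0.21; edgeR adjusted p = 0.000182) and Ifngr1 (0.90 ± 0.25; 0.0128), which together form the interferon gamma receptor. At 6 h 10.4% of all genes were called higher. At 72 h 2 of the 9 were higher and 5 lower, when 26.7% and 29.6% of all genes were. Jak1, the kinase shared by the receptors, was at -1.72 ± 0.18 at 72 h (edgeR adjusted p = 3.01e-08). Ifnlr1, a subunit of the interferon lambda receptor, was at 1.84 ± 0.32 (4.34e-05).

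The counts of the following lists stand beside 10.4%, 21.8%, 26.9% and 26.7% of all genes called higher at 6 h, 24 h, 48 h and 72 h, and 8.51%, 20.2%, 26.8% and 29.6% called lower. Of 14 tested genes of nucleic acid sensing, 3 were higher at 6 h, 24 h and 48 h and 2 at 72 h, and 0, 0, 1 and 3 were lower. Sting1, the adaptor of cytosolic DNA sensing, rose at all 4 times (2.23, 2.15, 1.80 and 2.11), as did the kinase Ikbke (1.495, 1.67, 2.80 and 2.56). Of 14 tested inhibitors, 2 were higher and 0 lower at 6 h, 5 and 2 at 24 h, 5 and 1 at 48 h and 4 and 1 at 72 h. The largest of these at 6 h and 24 h was Socs3 at 3.72 ± 0.31 (edgeR adjusted p = 1.91e-08) and 4.10 ± 0.31 (6.93e-10). Of 40 tested type I targets outside the families, 5 were higher and 1 lower at 6 h, 6 and 5 at 24 h, 10 and 5 at 48 h and 5 and 11 at 72 h; Apobec3, a deaminase that restricts retroviruses, reached 3.76 ± 0.21 at 48 h (1.53e-12). Of 21 tested interferon gamma targets 6 were higher at each time and 0, 4, 4 and 7 lower; Cxcl9, a T cell chemokine, was at 6.00 ± 1.02 at 48 h (3.29e-05), while Cd274, which encodes PD-L1, was at -1.97 ± 0.59 (0.00792).

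Surgery alone moved few members. In sham 24 h kidneys 4 members were higher and 3 lower than in sham control kidneys among 68 tested, or 5.88% and 4.41%, when 7.7% and 13.1% of all genes were. Ifit3 had 34.6, 37.6, 42.3 and 31.3 CPM in sham 24 h against 22.9, 25.7, 27.5 and 25.6 in sham control (0.52 ± 0.12; edgeR adjusted p = 0.00519), with no overlap. Isg20 had 6.66, 6.57, 2.97 and 5.89 CPM against 2.72, 2.39, 2.51 and 2.28 in sham control (1.16 ± 0.31; 0.0143). Gbp2 fell, with 4.34, 2.56, 1.91 and 3.18 CPM in sham 24 h against 5.8, 8.29, 9.13 and 6.32 in sham control (-1.30 ± 0.29; 0.00402). Ifi27l2a fell as well, with 15.5, 10.1, 16.3 and 19.5 CPM against 30.6, 16.7, 42.2 and 38.8 (-1.06 ± 0.24; 0.00433). For Ifi27l2a 1 sham control library at 16.7 CPM lay within the sham 24 h range. Ifitm7, Irf2bpl and Irf2bp2 were also called (4.03, 0.40 and -0.41). Ifitm7 lost the call without sham 24 h 2 (edgeR adjusted p = 0.0552), Irf2bpl without 7 of the libraries (up to 0.119) and Irf2bp2 without sham control 1 or sham 24 h 1 (up to 0.0831).

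The change after IRI at 24 h was then set against the change after sham surgery at 24 h, each relative to its own controls and fitted together over 19616 genes. Of 72 members tested, 17 changed more upward and 3 more downward after IRI, or 23.6% and 4.17%, when 13.8% and 10.5% of all genes did. With only the libraries of the comparison the counts were 25 and 10, when 24.8% and 20.1% of all genes were called. The difference was 3.96 ± 0.66 for Ifitm10 (edgeR adjusted p = 2.71e-05), 3.22 ± 0.53 for Oas2 (2.08e-05) and 1.66 ± 0.24 for Ifitm3 (3.25e-06). Among the factors it was 1.12 ± 0.18 for Irf3 (1.63e-05), 1.29 ± 0.39 for Irf7 (0.0143) and 0.90 ± 0.22 for Stat2 (0.00234). It was not called for Irf9 (0.53), Isg15 (0.43), Isg20 (1.08), Oasl1 (2.02) and Ddx58 (0.43), at edgeR adjusted p of 0.0831 to 0.591. These members were called higher at 24 h against Control. After sham surgery Isg15 was at 0.87 against sham control, without a call (edgeR adjusted p = 0.0832). Oas2 had 4.49, 6.82, 3.12 and 7.36 CPM in sham 24 h against 4.68, 2.9, 3.87 and 2.76 in sham control. Irf7 had 15.6, 14.8, 7.39 and 9.99 against 15.8, 8.33, 16.8 and 14.1, and Ifitm3 had 48.1, 39.9, 30.5 and 35.8 against 37.1, 31, 43.8 and 34.1. In each of the 3 the groups overlapped.

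On the lower side Irgm2 differed by -1.62. The differences of Ifitm1 (-1.49) and Rsad2 (-1.71; edgeR adjusted p = 0.0421) lost the call without any 1 of 16 and of 14 libraries, at adjusted p of 0.05 to 0.0916 and 0.0518 to 0.0846. The difference of Irf1 (1.01; 0.0361) lost it without any 1 of 11 libraries, at up to 0.149. The sham libraries were sequenced deeper and stand in a table of their own, so surgery type and table cannot be told apart for levels, and the test uses changes within each table. Neutrophil markers summed to 0.517 to 2.27 CPM in sham 24 h against 0.109 to 1.25 CPM in sham control.

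**Figure D3:**
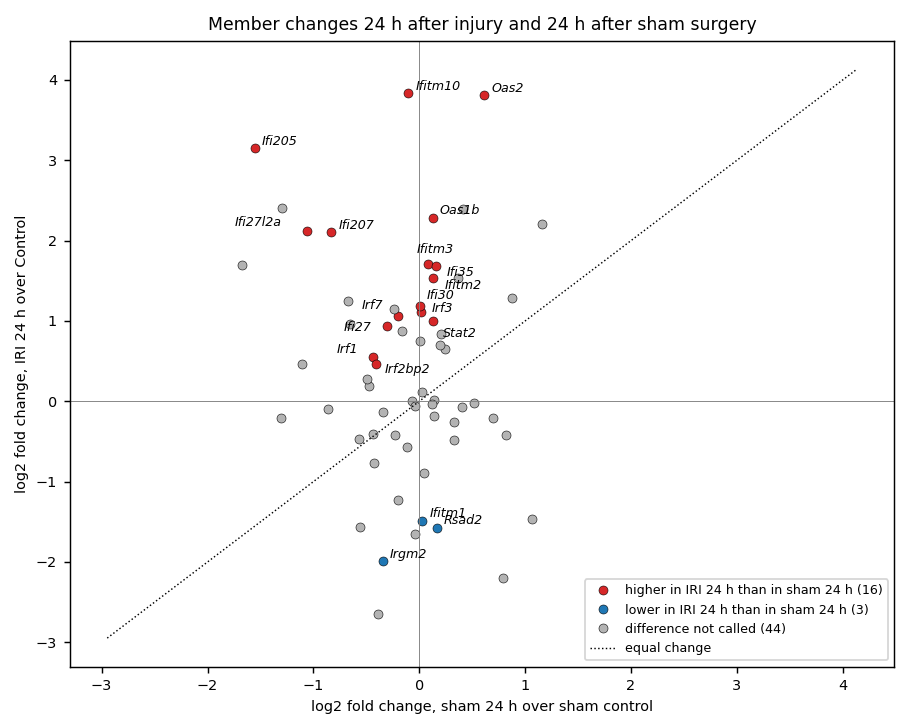
Log2 fold change of 63 members after IRI at 24 h (vertical axis, against Control) and after sham surgery at 24 h (horizontal axis, against sham control); red and blue points differ between the surgeries at an adjusted p under 0.05, and the dotted line marks equal change. Of the coloured points 16 are higher and 3 lower after IRI, with Ifitm10 and Oas2 at the top.

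In AKI kidneys 5 of 8 tested genes of the Ifi200 cluster and 2 of 3 sensor genes, Ddx58 and Ifih1, were higher than in Control, and Ifitm1 and Irf5 were lower. Of 70 members tested over 16623 genes, 20 were higher and 5 lower in AKI than in Control, or 28.6% and 7.14%, when 20% and 15.1% of all genes were. Without AKI 1 the counts were 19 and 14 (all genes 24.1% and 24%). Among those 14 were 5 of 9 tested guanylate-binding genes (Gbp4, Gbp5, Gbp6, Gbp8 and Gbp9). The others included 3 of 4 immunity-related GTPase genes (Ifi47, Iigp1 and Irgm2) and Rsad2. In the Ifi200 cluster Ifi204, Ifi205, Ifi207, Ifi209 and Ifi211 rose, with and without AKI 1; Ifi203, Ifi206 and Ifi213 did not pass. Ifi209 had 5.48, 4.94, 4.04 and 4.2 CPM in AKI against 1.31, 0.585, 0.316 and 1.44 in Control (2.34 ± 0.59; edgeR adjusted p = 0.00624). Ifi205 was uneven, with 17.6, 0.962, 3.85 and 8.87 CPM in AKI (3.84 ± 0.77; 0.00138), and 44.7% of the 50-base stretches of Ifi211 are shared with it. Of the RNA sensors, Ddx58 had 46.2, 40.9, 44.9 and 40.2 CPM in AKI against 22.5, 32.6, 27.5 and 24.4 in Control (0.69 ± 0.19; 0.00964). Ifih1, which encodes MDA5, reached 0.59, and the call ended without Control 1, 2 or 3 or AKI 4, at 0.0554 to 0.0856.

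Ifitm1 fell in AKI. It had 3.65, 1.28, 1.47 and 2.9 CPM in AKI against 12.8, 12.2, 9.28 and 9.79 in Control (-2.24 ± 0.39; edgeR adjusted p = 0.000509). Ifitm3 had 36.3, 41.2, 35.6 and 39.3 CPM in AKI against 57.2, 51.4, 49.1 and 59.7 in Control, all below Control without passing the test (-0.51; 0.0939). Irf5 fell too, with 6.89, 11.2, 11 and 7.69 CPM in AKI against 20.5, 22.8, 24.9 and 20.3 in Control (-1.27 ± 0.27; 0.00212). AKI 1 alone carried high values of several members: Rsad2 had 44.4 CPM in AKI 1 and 4.36 to 8.84 in AKI 2 to 4, and Iigp1 had 178 CPM in AKI 1 and 5.96 to 10.5 in the others. Mx1 was called in AKI at 2.08 (0.0263) and was at 0.97 (0.172) without AKI 1.

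Set directly against IRI 6 h, a comparison chosen after the data were seen, AKI had 4 members higher and 11 lower of 70, or 5.71% and 15.7%, when 16.8% and 17.6% of all genes were. Without AKI 1 the counts were 4 and 17, and without AKI 2 they were 10 and 7. On the scale of the joined tables Ifitm1 had 3.69, 1.28, 1.47 and 2.92 CPM in AKI against 34.1, 25.3, 26.9 and 23.6 in IRI 6 h (-3.55 ± 0.37; edgeR adjusted p = 2.35e-06). Ifitm3 had 36.6, 41.2, 35.4 and 39.6 CPM in AKI against 234, 153, 150 and 126 in IRI 6 h (-2.12 ± 0.24; 5e-06). Ifitm2 (-1.74), Isg20 (-2.01), Irf5 (-1.14), Irf7 (-0.91) and Isg15 (-0.96) were also lower in AKI. Iigp1 was called higher in AKI (2.22; 0.0267), the sign turned without AKI 1 (-0.45; 0.126), and the call also ended without IRI 6 h 1, 3 or 4. That of Irf7 ended without AKI 3 (-0.77; 0.0507). Neutrophil markers (5 of 6 in the table) summed to 5.44 to 27.1 CPM in AKI and to 51.7 to 455 CPM in IRI 6 h, each in its own table's scale. Their part in the difference was not tested.

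In BM-MSC kidneys 11 members were higher and 0 lower than in Control, or 15.7% and 0%, when 6.56% and 2.36% of all genes were. At an unadjusted p under 0.05 there were 29 higher and 1 lower, and DESeq2 called 21 and 1; with only the libraries of the comparison 32 were higher and 5 lower (17.4% and 14.4% of all genes). The count was 2 to 6 without any 1 of Control 1 to 4, BM-MSC 1, BM-MSC 3 or BM-MSC 4, being 2 without Control 3 or BM-MSC 4. Ifitm3 and Ddx58 held without each library in turn. Ifitm3 had 105, 89.7, 117 and 163 CPM in BM-MSC (1.12 ± 0.23; edgeR adjusted p = 0.00763), and Ddx58 had 57.5, 48.9, 41.5 and 67.3 (1.01 ± 0.19; 0.00467). No library overlapped the Control values given above.

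In UC-MSC kidneys 16 members were higher and 4 lower than in Control, or 22.9% and 5.71%, when 20.4% and 16.7% of all genes were; DESeq2 called 18 and 9. All 5 tested IFITM members rose. Ifitm3 had 175, 99, 196 and 89.4 CPM in UC-MSC (1.36 ± 0.23; edgeR adjusted p = 0.000413). Ifitm2 had 84.1, 82.2, 142 and 108 against 37.7, 39, 34.6 and 41.6 in Control (1.45 ± 0.19; 5.17e-05). Ifitm10 and Ifitm6 were at 1.97 ± 0.39 and 5.27 ± 0.94. Ifitm1 (1.15; 0.0203) lost the call without Control 3 or 4 or UC-MSC 1 or 3, at 0.0548 to 0.0757. Oasl1 had 25.4, 14.2, 25.2 and 14.1 CPM in UC-MSC against 2.85, 3.64, 2.65 and 2.94 in Control (2.71 ± 0.33; 3.19e-05). Isg20 had 11.5, 11.3, 18.5 and 8.47 CPM in UC-MSC against 3.15, 3.44, 2.78 and 2.09 in Control (2.12 ± 0.36; 0.000395). Neither overlapped.

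Irf3 was lower in UC-MSC than in Control (-0.51 ± 0.15; edgeR adjusted p = 0.0155), with 44.3, 37.7, 47.8 and 45.5 CPM in UC-MSC against 64.8, 56.7, 62.7 and 64.8 in Control, and was at -0.44 (0.0526) without UC-MSC 2. Neutrophil markers summed to 49.4 to 526 CPM in UC-MSC, 12.7 to 339 in BM-MSC, highest in BM-MSC 4, and 2.72 to 4.70 in Control. In the same order, macrophage markers summed to 171 to 421, 298 to 511 and 185 to 199, and kidney markers to 1939 to 5733, 5581 to 11571 and 11676 to 13627. Their part in the members' values was not tested.

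**Figure D4:**
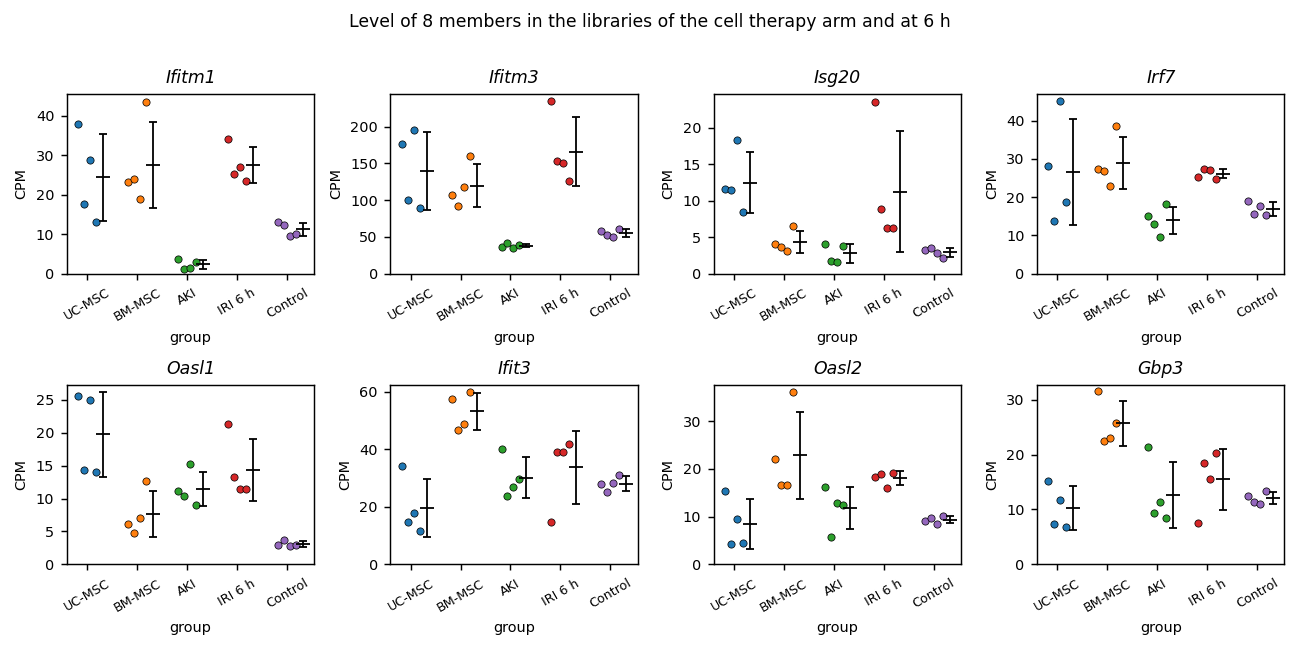
CPM of 8 members in each library (points) of UC-MSC, BM-MSC, AKI, IRI 6 h and Control on the scale of the joined tables, 4 libraries a group, with the group mean and SD in black; each panel has its own axis from 0. Ifitm1 and Ifitm3 lie low in AKI and high in IRI 6 h, and Ifit3 and Gbp3 lie lower in UC-MSC than in BM-MSC.

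The MSC groups were then set against AKI. In BM-MSC 12 members were higher and 8 lower than in AKI, or 17.1% and 11.4%, when 16.3% and 17.1% of all genes were. Without AKI 1 the counts were 22 and 8 (all genes 25.2% and 22.5%), and 11 members in all were called without BM-MSC 1 and 13 without AKI 4. In UC-MSC 10 were higher and 11 lower, or 14.3% and 15.7%, when 20.3% and 20.2% of all genes were. Without AKI 1 the counts were 18 and 6 (all genes 27.5% and 25.6%), and with only the libraries of the comparison 5 and 3 (11.5% each). The size and the sign depended on which untreated 6 h kidneys served as the comparator. For Ifitm1, BM-MSC had 22.8, 23.4, 18.7 and 44 CPM and UC-MSC 37.6, 17.5, 29 and 13.2, all above AKI (3.55 ± 0.40 and 3.39; edgeR adjusted p = 2.21e-05 in BM-MSC). With IRI 6 h in place of AKI the differences were -0.01 and -0.16. For Ifitm3 they were 1.64 and 1.88 against AKI, and -0.48 and -0.23 against IRI 6 h. With IRI 6 h in place of AKI no member was called in BM-MSC by edgeR (15 higher and 11 lower at an unadjusted p under 0.05), when 1.01% of all genes were called higher and 1.55% lower. In UC-MSC 5 were higher and 7 lower, when 11.7% and 11.4% of all genes were.

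Irf3 gave the same direction against both sets of untreated kidneys. Irf3 had 44.3, 37.7, 47.8 and 45.5 CPM in UC-MSC against 60.2, 92.6, 101 and 93.8 in AKI (-0.99), and -0.70 against IRI 6 h. Both values passed the test.

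Between the MSC sources, which does not involve AKI, 7 members were higher and 10 lower in UC-MSC than in BM-MSC, or 10% and 14.3%, when 10% and 10.4% of all genes were, so these shares were near those of all genes. The members lower in UC-MSC included Ifit2, Ifit3, Ifit3b, Gbp3, Gbp7, Irgm2, Oasl2, Ifi203 and Ifi44, and those higher were Ifitm2, Ifitm6, Isg20, Oasl1, Ifi30, Irf2bp2 and Irf2bpl. Ifit3 had 34, 14.5, 18.1 and 11.6 CPM in UC-MSC against 56.3, 45.5, 48.5 and 60.9 in BM-MSC (-1.43 ± 0.26; edgeR adjusted p = 0.00247). Gbp3 had 15.1, 7.21, 11.8 and 6.84 against 30.8, 21.8, 22.9 and 26.1 (-1.31 ± 0.29; 0.00628). In both every UC-MSC library lay below every BM-MSC library.

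On the higher side Isg20 had 11.5, 11.3, 18.5 and 8.47 CPM in UC-MSC against 3.99, 3.62, 3.05 and 6.67 in BM-MSC (1.52 ± 0.35; edgeR adjusted p = 0.00733). Oasl1 had 25.4, 14.2, 25.2 and 14.1 against 6.02, 4.58, 7 and 12.9 (1.37; 0.00624), again with no overlap. Ifitm3 did not pass (0.24). The calls of Oasl2 (-1.43; 0.0182) ended without BM-MSC 4 or UC-MSC 2, at 0.0524 and 0.0571. Those of Ifi30, a lysosomal thiol reductase (0.80), and Ifitm6 (2.49) ended without 4 and 5 of the libraries and that of Ifit2 without 6, at adjusted p up to 0.114, 0.0933 and 0.12.

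**Figure D5:**
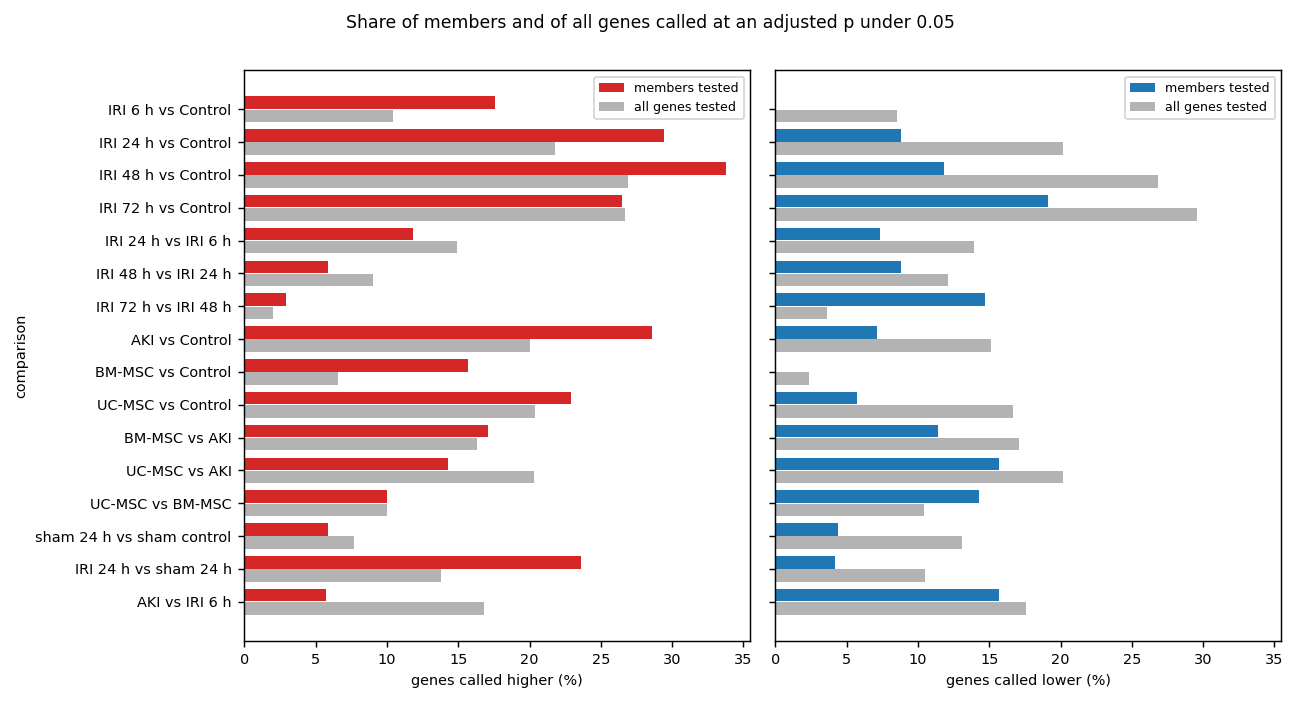
Percent of tested members and percent of all tested genes called higher (left panel) or lower (right panel) at an adjusted p under 0.05 in 16 comparisons. At 24 h after IRI 29.4% of members and 21.8% of all genes were called higher, whereas in UC-MSC against BM-MSC both shares were 10%.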

How the data were processed

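The deposited files were 3 tables of raw counts per gene, which the authors made from 44 library columns of 40 samples; the Control columns stand in both the injury and the therapy table. HTSeq, DESeq2 and the builds GRCm39 and mm39 are named in the submitters' processing notes; of the aligner, the name was not given in the sources used here. Lines repeated by a join in the deposited files were reduced to 1 per name, and 85 names were left out, 74 of them because their Control counts differed between the tables. No column of per-sample values went unused.

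Each table was fitted alone with edgeR 4.0.16 (R 4.3.3, limma 3.58.1): TMM scaling, filterByExpr, quasi-likelihood test, Benjamini-Hochberg adjustment over all genes tested, and a threshold of 0.05. CPM use TMM-scaled library sizes, and levels are comparable within a table only. IRI 24 h against sham 24 h was the difference of the changes against each arm's own controls. AKI against IRI 6 h was added after the data were seen, over names with equal Control counts, with the tables joined. DESeq2 1.42.0 was an alternative. The fits were tested on simulated data with known changes. Tables and figures used Python 3.11.15, pandas 2.3.3, numpy 2.4.6 and matplotlib 3.10.9.

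Results for some members are not reported here. The members, the gene lists and the tests were chosen with earlier results of these data known. Named members are, in each comparison, the called members that changed most, at most 6 and with a mean log2 CPM of 1 or more, and 20 sentinel genes; others named were chosen after their values were seen, and so were the families' further examples. A gene at 0 in a whole group is given as a bound, taking 3 counts for the whole group as the floor; such bounds cover counting error alone. The share of a member's 50-base stretches found in other genes, and the promoter windows, come from reference transcripts and RefSeq tables of GRCm38, an older build than the files', so no coordinate of the files was used.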

Additional observations from a re-analysis of the deposited data

Results flagged for a closer look

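Among 200 groups of 4 libraries examined for the sentinel members, 14 held 1 library far from the other 3 by Dixon's test, where chance gives about 1 in 20 groups. In AKI the library AKI 1 was the high one for Rsad2 (44.4 CPM against 4.36 to 8.84 in the others), Ifit1 (31.3 against 10.7 to 14.0) and Gbp2 (48.5 against 13.1 to 17.1), and AKI 3 was low for Oas1a (2.05). IRI 6 h 1 was low for Ifit1 (4.65 CPM against 9.51 to 10.4) and Ifit3 (14.6 against 39.0 to 41.5) and high for Gbp2 (25.2 against 14.8 to 15.7). Single libraries also stood apart for Ifit3 in IRI 24 h 2 (46.3 CPM), Ifitm3 in IRI 48 h 2 (128), Oas1a in BM-MSC 4 (10.2), Irgm1 in UC-MSC 4 (77.6), Ifit1 in sham 24 h 4 (4.50) and sham control 1 (8.65), and Irf3 in Control 2 (61.5).

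The change at 24 h differed between IRI and sham surgery, by the test of the difference itself, for Ifitm3 (1.66), Irf7 (1.29), Ifi27 (1.27), Irf3 (1.12), Irf1 (1.01), Stat2 (0.90) and Rsad2 (-1.71), on the log2 scale. AKI and IRI 6 h, which share a labelled time, differed for Ifitm3 (-2.12), Oas1a (-1.003), Isg15 (-0.96), Irf7 (-0.91) and Ifih1 (0.61). The Ifih1 difference was 0.54 (edgeR adjusted p = 0.069) without AKI 1, and the calls of Ifih1 and Oas1a each ended without any 1 of 5 libraries. What sets the AKI libraries apart from the IRI 6 h libraries was not tested.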

How the results depend on the processing

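With only the libraries of the comparison in the fit, the number of members called was 37 (31 higher, 6 lower) at IRI 6 h, 50 (33 and 17) at IRI 24 h, 29 for IRI 24 h against 6 h, 0 for IRI 72 h against 48 h (11 lower at an unadjusted p under 0.05), 37 for BM-MSC against Control, 8 for UC-MSC against AKI and 35 (25 and 10) for IRI 24 h against sham 24 h; the cause was not tested. DESeq2 called 22 in BM-MSC against Control. The same replicate numbers did not pair the samples (2 of 40 injury and 5 of 24 therapy correlations over 0.1); with the replicate block 5 members were called for IRI 72 h against 48 h and the other counts stayed within 1.5 times. The sham control columns carry no number, so the block could not be fitted there. With IRI 6 h in place of AKI, 0 members were called in BM-MSC and 12 in UC-MSC. In BM-MSC the sign turned for Ifi205 (0.044), Ifitm1 (-0.005), Ifitm2 (-0.76), Ifitm3 (-0.48), Irf5 (-0.21) and Isg15 (-0.033), and in UC-MSC for Ifih1 (0.088), Ifitm1 (-0.16), Ifitm3 (-0.23) and Irf5 (-0.19). Iigp1 in AKI against IRI 6 h was -0.45 without AKI 1 and up to 2.59 (without AKI 3) with another library left out.

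Without 1 library the counts were 4 to 10 at IRI 6 h, 22 to 24 at 24 h, 24 to 28 at 48 h and 25 to 31 at 72 h; 10 to 16, 7 to 12 and 6 to 11 for the 3 steps between times; 20 to 33 in AKI, 2 to 14 in BM-MSC and 15 to 22 in UC-MSC against Control; 11 to 30 in BM-MSC and 16 to 24 in UC-MSC against AKI; 13 to 21 in UC-MSC against BM-MSC; 5 to 10 in sham 24 h; 15 to 17 in IRI 24 h against sham 24 h; and 11 to 21 in AKI against IRI 6 h. Without the filter on low counts the calls at IRI 72 h were 13 higher and 15 lower, in place of 18 and 13. DESeq2 size factors moved the median change of the members by 0.10 at 48 h and 0.13 at 72 h on the log2 scale. Of 1372 values of single called members under alternatives other than leaving out 1 library, 1220 kept direction and call, 142 lost the call and 10 changed sign. The IRI 48 h and 72 h libraries are the shallowest, and members of a few CPM there rest on few counts.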

Other observations

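Over the means of the 5 injury-table groups (20 libraries), the members with patterns most like that of Irf7 were Ifit1 (0.93), Ifi27l2b (0.90), Oasl2 (0.88), Ifi35 (0.88) and Irf1 (0.83); with 5 points that share libraries these are descriptions. In the therapy table Sting1 was higher in AKI (1.32 ± 0.27; edgeR adjusted p = 0.00153), BM-MSC (1.93 ± 0.27; 0.00115) and UC-MSC (1.88 ± 0.27; 0.00012) than in Control, and Cxcl10, an interferon-induced chemokine, was higher in AKI (1.67 ± 0.32; 0.000956) and BM-MSC (1.56 ± 0.32; 0.00692). Cxcl10 was higher in AKI than in IRI 6 h by 2.33 ± 0.35 (6.28e-05). Of 17 tested genes of nucleic acid sensing 3 were higher in AKI (3 also without AKI 1), 4 in BM-MSC and 8 in UC-MSC than in Control, and 0 lower by edgeR in each, when 20%, 6.56% and 20.4% of all genes were higher. Ifngr1 was higher in UC-MSC than in BM-MSC (0.82 ± 0.18; 0.00551), as was Ifngr2 (0.66 ± 0.16; 0.0101). Markers of endothelial cells summed to 38.03 to 175 CPM in AKI against 179 to 190 CPM in Control.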
